A study of Mus musculus with 4 samples.

Results

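The genes that make prostaglandins and leukotrienes from arachidonic acid were examined in primary mouse microglia treated with EGCG or its vehicle. The group holds 10 genes, chosen by name for their known place in the pathway, out of 54532 genes counted in both replicates and 22046 protein-coding genes. All 10 are protein-coding and all 10 passed the filter on low counts, which kept 13811 protein-coding genes. The microglia were grown from the cortex of male CD1 pups in the first days of life, first together with other glia. For RNA extraction the astrocyte layer was removed with trypsin and the remaining cells were kept in serum-free medium. EGCG libraries came from cells given 1 µM EGCG, a flavan-3-ol of green tea, for 24 h, and Vehicle libraries from cells given DMSO. Each group has 2 libraries, numbered by biological replicate, here called Vehicle 1, EGCG 1, Vehicle 2 and EGCG 2. The depth was 33805071 counts for Vehicle 1, 34300679 for EGCG 1, 36307930 for Vehicle 2 and 54970300 for EGCG 2. EGCG 2 was thus 1.51 times as deep as its Vehicle library. In the 4 pairs compared no library was a copy of the other, since a chi-square comparison of counts gave at least 9.84 per gene. Vehicle 1 with EGCG 2 and EGCG 1 with Vehicle 2 were not compared.

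Arachidonic acid is cut from membrane lipids by phospholipase A2 enzymes. Cyclooxygenases, of which form 1 is constitutive in microglia and form 2 inducible, turn it into prostaglandin H, from which separate synthases make prostaglandins D and E, prostacyclin and thromboxane. In the other branch, 5-lipoxygenase, with the help of its activating protein, makes leukotriene A, which is converted to leukotriene B by a hydrolase or to leukotriene C by a synthase.

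The label microglia was checked against marker genes. All 10 microglia markers were detected in every library, at no fewer than 409 counts, with C1qa the most abundant. Their summed level was 6516 CPM (counts on edgeR's scale for TMM-normalized library size) in Vehicle 1, 7204 in EGCG 1, 8890.0 in Vehicle 2 and 8806 in EGCG 2. Mast cells, neutrophils and platelets are other known sources of these lipids. Of 8 mast cell markers, 5 had no count in any library (Cpa3, Tpsab1, Mcpt4, Fcer1a and Ms4a2), and the list summed to at most 0.312 CPM, mostly from Kit. Of 8 neutrophil markers, S100a9, Ly6g and Elane were at 0 and S100a8 was the most abundant, and the list summed to 12.1, 13.3, 3.11 and 3.66 CPM in the same order of libraries. Of 6 platelet and megakaryocyte markers none was at 0 in every library, and the list, led by Ppbp, summed to 10.1, 8.11, 6.57 and 4.80 CPM. A count of 0 in a library allows up to 3 counts, or between 0.0544 and 0.0936 CPM, from counting error alone.

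Levels of different genes were compared as CPM per kb of the gene length listed with the counts. Alox5ap, which encodes the 5-lipoxygenase activating protein, had the highest mean level per length of the group, with 61.3 in Vehicle 1, 59.4 in EGCG 1, 26.6 in Vehicle 2 and 27.6 in EGCG 2. Its mean ranked 985 among the 13811 genes tested. Ptgs1 followed with 46.1, 43.9, 17.3 and 17.3 CPM per kb in the same order, and Hpgds with 14.3, 18.9, 31.8 and 29.98. Next in order of the mean stood Tbxas1 (14.0 CPM per kb), Lta4h (10.9), Pla2g4a (10.8), Alox5 (8.40), Ptgs2 (6.47), Ltc4s (3.78) and Ptges (3.05). The ranges over the 4 libraries of every pair of neighbours in this order overlapped. Within single libraries, Alox5ap was above Ptgs1, Hpgds above Tbxas1, Tbxas1 above Lta4h and Pla2g4a above Alox5 in all 4, while the other neighbours changed places between libraries. In replicate 1 the highest levels per length were those of Alox5ap and Ptgs1, while in replicate 2 Hpgds stood above both. The lowest mean, that of Ptges, ranked 7794. How the listed length was made is not stated. For every gene of the group it is shorter than the genomic span. Levels per length therefore hold only as far as the listed length matches the RNA made here.

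**Figure D1:**
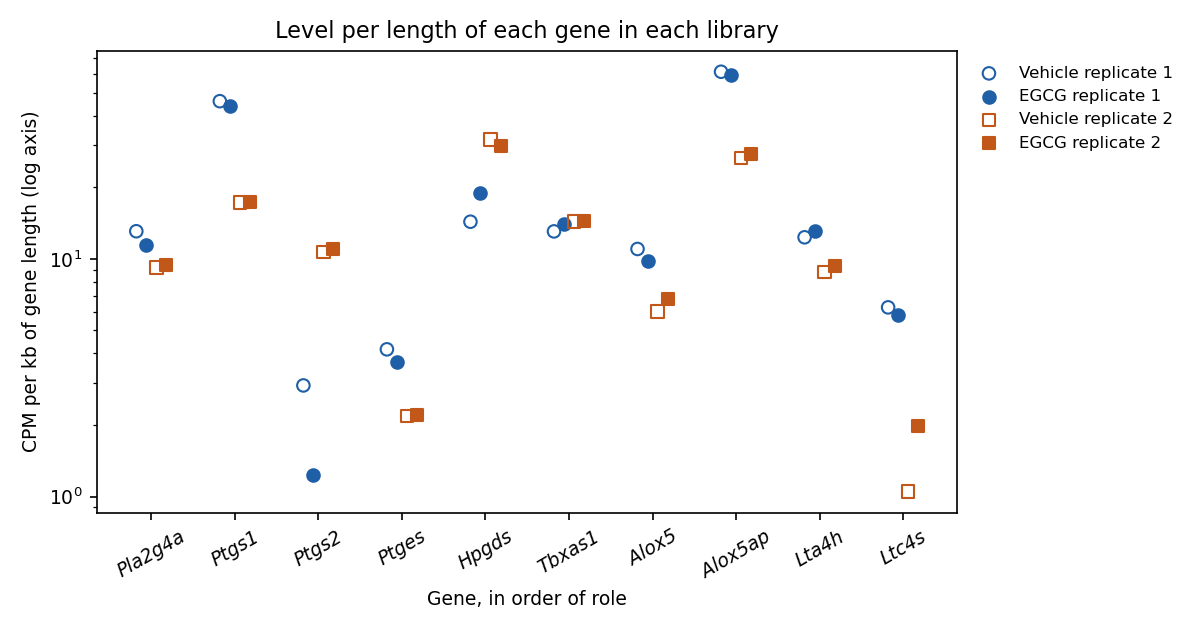
Level of each of the 10 genes in each of the 4 libraries, as CPM per kb of gene length on a log axis. Circles are replicate 1 and squares replicate 2, open for Vehicle and filled for EGCG. For Ptgs1 both circles stand above both squares, and for Ptgs2 and Hpgds below them, while the open and filled symbols of a replicate mostly stand together.

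EGCG and Vehicle were compared first. When treatment was the sole term, edgeR's quasi-likelihood test gave 0 of the 10 genes an unadjusted p below 0.05, against 16 of 13811 genes tested (0.116%). No gene of the 13811 (0%) reached an adjusted p under 0.1 in that test, and none of the 10 did. The smallest unadjusted p in the group was 0.700, for Tbxas1. DESeq2 also gave 0 of the 10 below 0.05, against 24 of all genes tested (0.174%), with a smallest value of 0.756. With the replicate number as a block, edgeR gave 444 genes (3.21%) below 0.05 unadjusted and again 0 of the 10, the smallest value being 0.147 for Ptgs2. DESeq2 with the block also gave 0 of the 10, against 153 genes (1.11%). The median log2 fold change was -0.02 over the 10 genes and 0.01 over all genes tested. The Vehicle and EGCG libraries overlapped for all 10 genes, while they did not overlap for 11.9% of the genes tested. For the 10 genes this overlap was fixed by the difference between replicates, whose libraries did not overlap for any of them. It therefore says nothing on EGCG. Without the block, the p-values of these tests measure the spread between 2 libraries a group. With it, they measure how far the EGCG difference varies between the 2 replicates. In both, a p that misses the threshold does not show that a level did not change.

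Pla2g4a encodes cytosolic phospholipase A2, which releases arachidonic acid. It had 2741 counts in Vehicle 1, 2340 in EGCG 1, 2153 in Vehicle 2 and 3336 in EGCG 2. As CPM these were 83.5, 73.0, 58.7 and 60.5. The Vehicle library was the higher of the pair in replicate 1 and the lower in replicate 2. Its log2 fold change was -0.09 with a standard error of 0.23 (edgeR, adjusted p = 1.00). Standard errors without the replicate block include the difference between replicates. With the block the log2 fold change was -0.08 with a standard error of 0.08. The gene (ENSMUSG00000056220) lies on chromosome 1 of GRCm38.p6 from 149829618 to 149961290 on the minus strand.

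Ptgs2 (ENSMUSG00000032487), the gene of cyclooxygenase-2, lies nearby on the same chromosome from 150100031 to 150108227 on the plus strand. It had 441 counts in Vehicle 1 and 180 in EGCG 1, or 13.4 and 5.62 CPM. In replicate 2 it had 1797 counts in Vehicle and 2784 in EGCG, or 49.0 and 50.5 CPM. The EGCG library was thus the lower of the pair in replicate 1, and the pair was level in replicate 2. Within replicate 1 the EGCG level was 0.418 of the Vehicle level, with an exact 95% binomial interval of 0.349 to 0.498 that covers counting error only. Within replicate 2 the ratio was 1.03 with an interval of 0.970 to 1.09. On the log2 scale the differences were -1.25 and 0.04. Of the 13811 genes tested, 583 (4.22%) had a log2 difference in replicate 1 at or below that of Ptgs2. The log2 fold change over both replicates was -0.15 with a standard error of 1.22 (edgeR, adjusted p = 1.00), and -0.49 with a standard error of 0.29 with the replicate block (adjusted p = 0.995). Without EGCG 2, Ptgs2 was the only 1 of the 10 genes past an unadjusted p of 0.05, with a log2 fold change of -2.50 and an unadjusted value of 0.0462, in a fit that gave 131 of 13480 genes (0.972%). Its sign was the opposite without EGCG 1 (0.69) or without Vehicle 2 (1.06). With a library left out, the treatments are no longer balanced over the replicates. The fit without EGCG 2 set EGCG 1 against both Vehicle libraries, and Vehicle 2 came from the replicate with the higher Ptgs2 level. The value of -2.50 therefore mixes the difference between replicates with that within replicate 1 (-1.25), and does not measure EGCG alone. Whether the EGCG difference of Ptgs2 differed between the replicates was not tested, since each replicate holds 1 library per treatment.

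EGCG 1, where Ptgs2 was lowest, also stood apart in some markers of fibroblasts and astrocytes. Col1a1 had 3962 counts in Vehicle 1, 4 in EGCG 1, 1344 in Vehicle 2 and 2040 in EGCG 2. Together Col1a1, Col1a2, Col3a1, Dcn and Lum, chosen after their values were seen, had 13706, 15, 5728 and 9528 counts in that order. Pdgfra, another marker of the list also named after its values were seen, did not share this pattern, with 122, 141, 43 and 95 counts. The whole list of 8 fibroblast markers, of which Fn1 was the most abundant, summed to 2835, 1717, 704 and 783 CPM, and without Fn1 to 426, 5.80, 161 and 178. Of 8 astrocyte markers, Gja1 had 160, 1, 66 and 107 counts, Aqp4 20, 0, 5 and 12, and Gfap 12, 2, 22 and 47, all 3 named after their values were seen. Aldh1l1, the most abundant of that list, did not share this pattern, with 339, 383, 330 and 506 counts, and neither did the sum of the list, at 22.6, 16.9, 14.3 and 15.2 CPM. No fibroblast marker was at 0 in every library, although Lum had 0 counts in EGCG 1. Fn1 is also made by macrophages. The part of fibroblasts or astrocytes in the level of Ptgs2 was not tested, and in bulk RNA fewer cells of a type and less RNA per cell cannot be told apart.

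Ptgs1 (ENSMUSG00000047250) encodes cyclooxygenase-1 and lies on chromosome 2 from 36230426 to 36252272 on the plus strand. It had 5873, 5467, 2460 and 3711 counts in Vehicle 1, EGCG 1, Vehicle 2 and EGCG 2, or 179, 171, 67.1 and 67.3 CPM. Both libraries of replicate 1 were above both of replicate 2, and within each replicate the treatments were close, with log2 differences of -0.07 and 0.00. Its log2 fold change in EGCG was -0.05 with a standard error of 0.69, and -0.03 with a standard error of 0.05 with the replicate block. As a share of the summed level per length of Ptgs1 and Ptgs2, Ptgs2 made up 5.99% in Vehicle 1, 2.72% in EGCG 1, 38.3% in Vehicle 2 and 38.9% in EGCG 2. Ptgs1 was therefore the more abundant cyclooxygenase RNA in all 4 libraries, by 15.7, 35.8, 1.61 and 1.57 times.

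Among the terminal prostanoid synthases, Hpgds makes prostaglandin D from prostaglandin H in blood-derived and myeloid cells. It had 92.1 CPM in Vehicle 1, 121 in EGCG 1, 204 in Vehicle 2 and 193 in EGCG 2. EGCG was the higher in replicate 1 and the lower in replicate 2, with log2 differences of 0.40 and -0.08. Tbxas1, the thromboxane synthase gene, was the steadiest of the 10 over the libraries, with 119, 128, 130.3 and 131 CPM in that order. Its widest gap on the log2 scale was 0.14, against 3.16 for Ptgs2. Ptges, the inducible microsomal prostaglandin E synthase, had 16.4, 14.4, 8.57 and 8.65 CPM. The log2 fold changes in EGCG were 0.08 for Hpgds, 0.05 for Tbxas1 and -0.11 for Ptges, with standard errors of 0.48, 0.13 and 0.45. With the replicate block they were 0.15, 0.05 and -0.08, with standard errors of 0.12, 0.05 and 0.10. Hpgds (ENSMUSG00000029919) lies on chromosome 6 from 65117293 to 65144908 on the minus strand and Tbxas1 (ENSMUSG00000029925) on the same chromosome from 38875404 to 39084585 on the plus strand. Ptges (ENSMUSG00000050737) lies on chromosome 2 from 30889471 to 30929863 on the minus strand. The level per length of Hpgds was 3.44 and 5.13 times that of Ptges in the Vehicle and EGCG libraries of replicate 1, and 14.6 and 13.6 times in those of replicate 2.

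The 5-lipoxygenase branch was detected from end to end. Alox5, the gene of 5-lipoxygenase, had 45.2 CPM in Vehicle 1, 40.3 in EGCG 1, 24.6 in Vehicle 2 and 27.9 in EGCG 2. Alox5ap had 87.0, 84.4, 37.8 and 39.2 CPM in the same order. Both genes were higher in replicate 1, with no common direction for EGCG. Lta4h, whose enzyme forms leukotriene B, had 75.2, 79.8, 53.9 and 57.1 CPM. It was 0.09 and 0.08 higher in EGCG on the log2 scale in replicates 1 and 2, and Lta4h and Tbxas1 were the 2 genes of the group with EGCG above Vehicle in both replicates, while 8 had opposite signs. Ltc4s, whose enzyme forms leukotriene C, rested on the fewest reads, with 208, 189, 39 and 111 counts, or 6.34, 5.90, 1.06 and 2.01 CPM. Within replicate 2 its EGCG level was 1.89 times the Vehicle level (exact 95% binomial interval 1.30 to 2.80), and within replicate 1 it was 0.931 times (0.760 to 1.14). Over the 10 genes, Ltc4s was the only 1 whose log2 difference between EGCG and Vehicle in replicate 2 was larger than 0.2 in size, and in replicate 1 this held for Ptgs2 and Hpgds. At or above the log2 difference of Ltc4s in replicate 2 stood 489 (3.54%) of the genes tested. Over both replicates the log2 fold changes were -0.03 for Alox5, -0.01 for Alox5ap, 0.08 for Lta4h and 0.09 for Ltc4s, with standard errors of 0.38, 0.59, 0.27 and 1.05. With the replicate block they were 0.0051, 0.0043, 0.08 and 0.36, with standard errors of 0.09, 0.06, 0.06 and 0.29.

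Alox5 (ENSMUSG00000025701) lies on chromosome 6 from 116410077 to 116461178 on the minus strand, and Alox5ap (ENSMUSG00000060063) on chromosome 5 from 149264767 to 149288153 on the plus strand. Lta4h (ENSMUSG00000015889) lies on chromosome 10 from 93453411 to 93484875 on the plus strand, and Ltc4s (ENSMUSG00000020377) on chromosome 11 from 50236461 to 50238616 on the minus strand. Alox5ap, Ltc4s, Tbxas1, Ptgs1, Hpgds and Pla2g4a overlap genes on the other strand. The libraries kept the strand, but whether the counting used it is not stated, so a part of these counts may be uncertain.

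Replicates 1 and 2 were then compared with each other, with the treatments of each as its 2 libraries. Each replicate number stands for 1 biological replicate, so the p-values measure the spread between the libraries that share a number and not that between preparations. In edgeR, 9 of the 10 genes had an adjusted p under 0.1, against 7824 of 13811 genes tested (56.7%). Among the 9930 genes with a mean CPM at least that of Ltc4s, the lowest of the group, the share was 65.5%. In replicate 2, 2 of the 10 genes were higher (29.1% of all genes tested) and 7 were lower (27.6%). The median log2 difference, replicate 2 minus replicate 1, was -0.59 over the 10 genes and 0.00 over all genes tested. The libraries of the replicates did not overlap for all 10 genes, as for 76.5% of the genes tested.

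The cyclooxygenases went opposite ways between the replicates. Ptgs1 was 175 ± 5.92 CPM in replicate 1 and 67.2 ± 0.108 in replicate 2 (SD, n = 2 libraries each), 2.60-fold higher in replicate 1 (log2 difference -1.38, standard error 0.05, adjusted p = 6.72e-06 in edgeR). Ptgs2 was 9.53 ± 5.53 CPM in replicate 1 and 49.7 ± 1.02 in replicate 2, 5.21-fold higher in replicate 2 (log2 difference 2.38, standard error 0.31, adjusted p = 0.000866). Without Vehicle 1 this log2 difference was 3.14, and without EGCG 1 it was 1.88. Hpgds was the other gene higher in replicate 2, from 107 ± 20.6 to 198 ± 8.11 CPM (1.86-fold, adjusted p = 0.000891). Ptges was 1.79-fold higher in replicate 1 (log2 difference -0.84, standard error 0.10, adjusted p = 0.000617). Tbxas1 did not pass the threshold, at 123 ± 6.41 and 131 ± 0.271 CPM (log2 difference 0.08, adjusted p = 0.260), but did so when libraries were scaled by total counts only (log2 difference 0.16). Pla2g4a was 1.31-fold higher in replicate 1 (adjusted p = 0.00492), and lost its call without Vehicle 2 (log2 difference -0.36) or without EGCG 2 (-0.41).

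All 4 genes of the 5-lipoxygenase branch were lower in replicate 2. Ltc4s was 6.12 ± 0.311 CPM in replicate 1 and 1.54 ± 0.670 in replicate 2 (SD, n = 2 libraries each), 3.91-fold higher in replicate 1 (log2 difference -1.97, standard error 0.29, adjusted p = 0.00140 in edgeR). The log2 differences were -1.15 for Alox5ap, -0.70 for Alox5 and -0.48 for Lta4h, with standard errors of 0.06, 0.09 and 0.06. Per length, Lta4h was 1.97 and 2.25 times as high as Ltc4s in the Vehicle and EGCG libraries of replicate 1, and 8.41 and 4.71 times in those of replicate 2. The direction of these 9 differences was the same under every scaling, filter and model tried and without each library in turn.

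**Figure D2:**
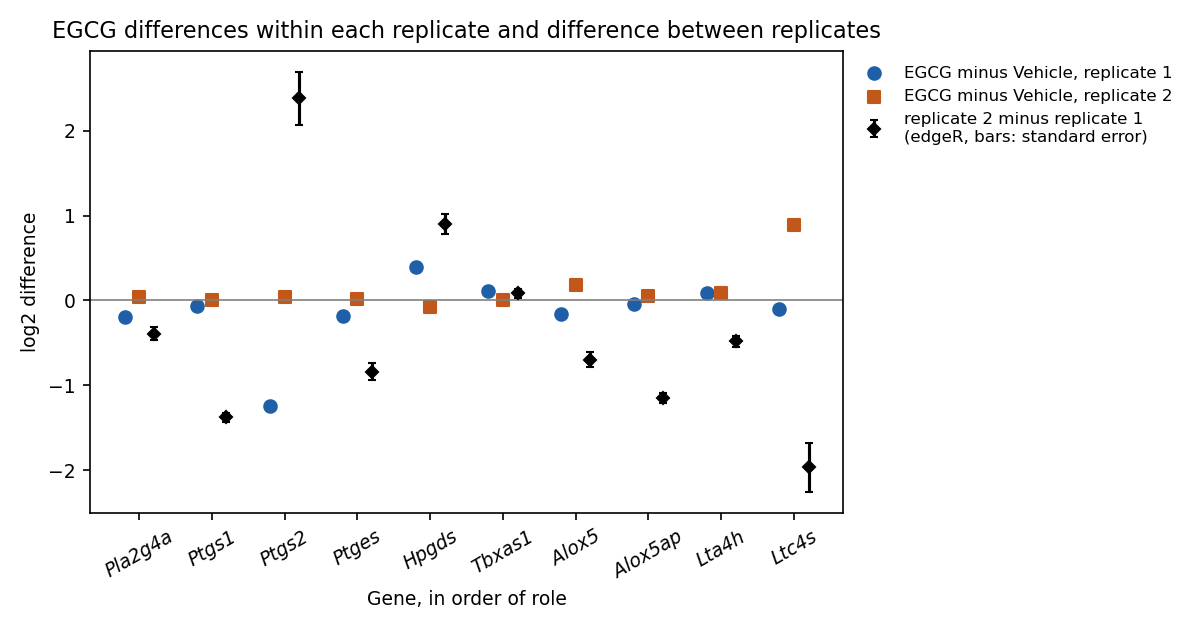
Log2 differences of the 10 genes, with EGCG minus Vehicle within replicate 1 (circles) and replicate 2 (squares), and replicate 2 minus replicate 1 from edgeR (diamonds, bars are standard errors). The EGCG differences lie near 0 apart from Ptgs2 (-1.25) and Hpgds (0.40) in replicate 1 and Ltc4s (0.89) in replicate 2, whereas the differences between replicates run from -1.97 to 2.38.

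Some markers also differed between the replicates. Among the microglia markers, 5 were higher and 4 were lower in replicate 2 at an adjusted p under 0.1. Snap25, the most abundant of 7 neuron markers, had 566 and 524 counts in the Vehicle and EGCG libraries of replicate 1 and 19 and 36 in those of replicate 2, and the neuron list summed to 19.1, 18.5, 1.45 and 2.30 CPM. Flt1, the most abundant of 6 endothelial markers, had 175, 175, 53.3 and 64.9 CPM, while Cldn5 was at 0 in all libraries and the list summed to 183, 181, 73.1 and 81.4 CPM. Pecam1, of the same list and named after its values were seen, went the other way, with 2, 3, 580 and 741 counts. The sum of the neuron list was mostly Snap25 in replicate 1 (17.2 and 16.4 CPM) but not in replicate 2 (0.518 and 0.653 CPM). Of the 5 neuron markers tested, 2 were lower in replicate 2 and 3 were not called. The 2 neutrophil markers tested were lower in replicate 2, and of the 4 platelet and megakaryocyte markers tested 3 were lower and 1 was higher. Of the 8 fibroblast markers, 2 were lower in replicate 2 and 6 were not called. Among the 7 astrocyte markers tested, 1 was higher in replicate 2, 2 were lower and 4 were not called. The 8 oligodendrocyte markers, led by Mbp, summed to 80.8, 82.0, 79.1 and 78.3 CPM. Most of this sum was Mbp, at 69.5, 71.2, 70.8 and 69.9 CPM. Of the 6 oligodendrocyte markers tested, 2 were lower in replicate 2 and 4 were not called. Of the 6 lymphocyte markers, Cd3d and 2 others had 1 count each over all libraries, and the list summed to at most 0.0312 CPM, with Nkg7 and Ncr1 at 0. The part of these cells in the differences between replicates was not tested.

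By Euclidean distance of the mean-centred log2 CPM over the 4 libraries, the 3 genes most like Ptgs2 among 10388 with at least 50 counts in every library were Sema4g (distance 0.57), Thbs1 (0.62) and Ankrd33b (0.64). Sema4g, a semaphorin, had 2.32, 1.62, 12.8 and 13.0 CPM in the usual order of libraries, and Ankrd33b 2.35, 1.78, 13.4 and 11.4. Thbs1, which encodes the matrix protein thrombospondin-1, had 33.3, 18.6, 205 and 210.0 CPM in Vehicle 1, EGCG 1, Vehicle 2 and EGCG 2. Like Ptgs2 it was high in both libraries of replicate 2 and lowest in EGCG 1.

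A list of 78 other genes of the pathway held 63 that were tested, and 13 with at most 3 counts in every library. Without the block, edgeR gave 0 of the 63 an unadjusted p below 0.05. When the block was added, edgeR gave 6 below it (9.52%), all higher in EGCG, against 3.21% of all genes tested and 2.12% of them in the higher direction, and DESeq2 with the block gave 4, against 1.11% of all genes tested. The 6 in edgeR were Mgll, Fpr2, Anxa1, Pla2g7, Gpx4 and Ptger4. The authors had already reported Mgll as raised by EGCG in these libraries, and the list was chosen with earlier results known. The share of the list is therefore a description and not a test. Mgll encodes monoacylglycerol lipase, which frees arachidonic acid from an endocannabinoid, and had 131 and 174 CPM in the Vehicle and EGCG libraries of replicate 1 and 82.5 and 109 in those of replicate 2. EGCG was above Vehicle in both replicates, with a blocked log2 fold change of 0.41 and a standard error of 0.05 (edgeR adjusted p = 0.659, DESeq2 adjusted p = 0.0251). Fpr2, a receptor for formyl peptides and lipoxin, had 70.3 and 80.8 CPM in replicate 1 and 94.99 and 112 in replicate 2. Anxa1, whose protein restrains phospholipase A2, differed by 0.17 and 0.32 on the log2 scale within the replicates, Pla2g7, the platelet-activating factor hydrolase, by 0.26 and 0.11, Gpx4, which reduces lipid peroxides, by 0.18 and 0.09, and Ptger4, a prostaglandin E receptor, by 0.28 and 0.09. The edgeR adjusted p of the 5 genes other than Mgll was 0.995 with the block, so that they were not called.

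Between the replicates, 49 of the 63 genes had an adjusted p under 0.1, 17 of them higher and 32 lower in replicate 2 (77.8%, against 56.7% of all genes tested). By role, higher and lower in replicate 2 were 5 and 8 of 19 genes of release and reuptake, 2 and 5 of 9 other prostanoid synthases, and 1 and 6 of 8 other lipoxygenases and partners. They were 5 and 8 of 15 genes of export, uptake and breakdown, and 1 and 3 of 5 prostanoid receptors. For leukotriene and related receptors, a role that also holds Fpr1 and Fpr2, they were 3 and 2 of 7. Of the 12 genes with the highest level per length in their roles, 2 from each, 11 passed. Among genes of arachidonate release and reuptake, Anxa1 was 3.66-fold and Pla2g7 4.42-fold higher in replicate 1. Ptges3, a chaperone partner with prostaglandin E synthase activity, did not pass (log2 difference 0.12, adjusted p = 0.187 in edgeR) but did without Vehicle 1 (0.17), with genes of all biotypes (0.16) or with total counts only (0.20), whereas Fam213b, a prostaglandin F synthase, was 2.55-fold higher in replicate 2. Cotl1, whose protein binds 5-lipoxygenase, was 1.30-fold and Gpx4 1.39-fold higher in replicate 1. Of the genes of export and breakdown, Hpgd, which encodes the dehydrogenase that inactivates prostaglandins, had 74.2, 73.1, 12.6 and 14.9 CPM in Vehicle 1, EGCG 1, Vehicle 2 and EGCG 2. It was 5.34-fold higher in replicate 1 (adjusted p = 5.74e-06 in edgeR), in the opposite direction to Hpgds. Ephx1, an epoxide hydrolase, was 1.23-fold higher in replicate 1 (log2 difference -0.30) and lost its call without EGCG 2 (-0.23).

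Most of the receptors tested differed between the replicates as well. Not called were 1 of the 5 prostanoid receptors and 2 of the 7 leukotriene and related receptors. Ptger4 had 35.4 and 43.0 CPM in the Vehicle and EGCG libraries of replicate 1 and 107 and 114 in those of replicate 2, 2.81-fold higher in replicate 2 (adjusted p = 3.66e-05 in edgeR). Ptgir, the prostacyclin receptor, went the other way, from 47.7 and 45.9 CPM to 11.4 and 12.9, 3.84-fold higher in replicate 1 (adjusted p = 7.62e-06). Ptgdr, a prostaglandin D receptor, and Tbxa2r, the thromboxane receptor, were at 0 in all 4 libraries, and Ptgdr2, the other prostaglandin D receptor, had 4, 1, 1 and 3 counts. These 3 receptors were named after their values were seen. Fpr1 was 1.59-fold and Fpr2 1.37-fold higher in replicate 2. Chosen after their values were seen, Cysltr1, a receptor for cysteinyl leukotrienes, was 2.13-fold higher in replicate 2, and Mgst2, a relative of Ltc4s that can also make leukotriene C, had 27.0 and 24.5 CPM in replicate 1 and 1.55 and 1.74 in replicate 2, 15.5-fold higher in replicate 1.

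**Figure D3:**
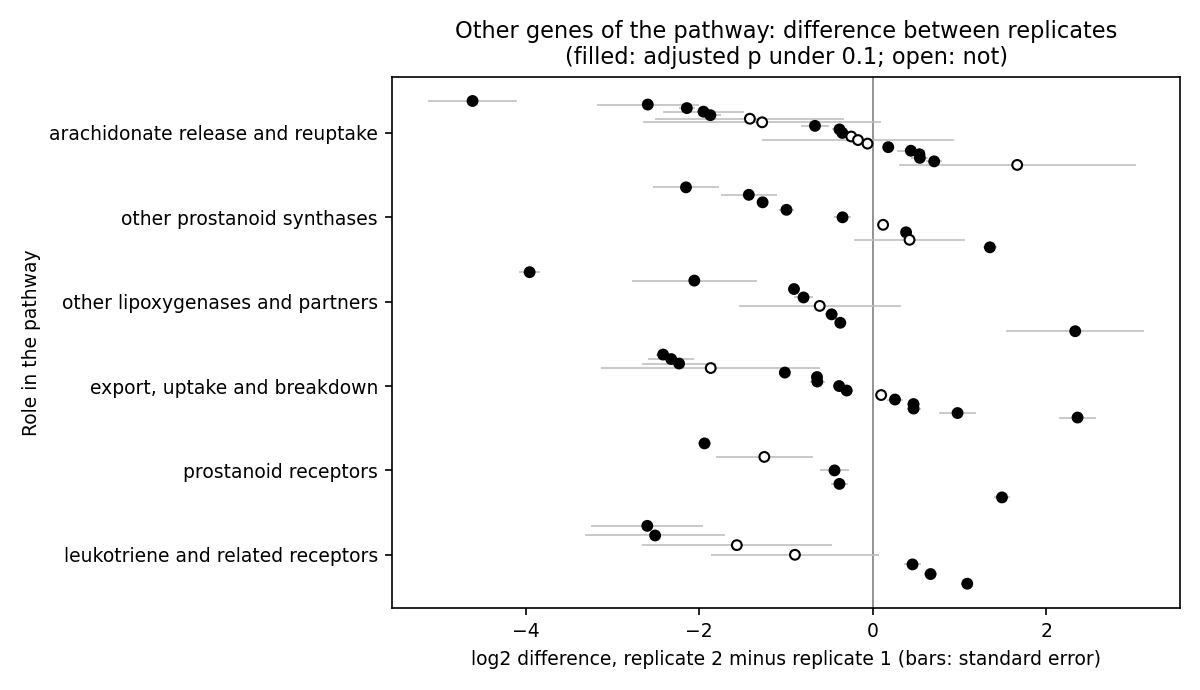
Log2 difference, replicate 2 minus replicate 1, of the 63 tested genes of the wider pathway by role, with standard errors from edgeR as bars. Filled points had an adjusted p under 0.1 (17 higher and 32 lower in replicate 2) and open points did not.

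The promoters of the cyclooxygenases are shown because their RNA went opposite ways between the replicates. RefSeq windows of 250 bases before the start were found for 9 of the 10 genes, all but Alox5ap, with 2 windows for Pla2g4a. That of Ptgs1 spans chr2:36230176-36230425 on the plus strand of GRCm38.p6 and that of Ptgs2 spans chr1:150099781-150100030 on the plus strand. Both end next to the first base of the gene as listed with the counts. Capitals mark GAGGAAGT, a binding word of the myeloid factor PU.1, in Ptgs1, and GGGCGG (GC box) and TTGCGCAA (a C/EBP palindrome) in Ptgs2.
Ptgs1: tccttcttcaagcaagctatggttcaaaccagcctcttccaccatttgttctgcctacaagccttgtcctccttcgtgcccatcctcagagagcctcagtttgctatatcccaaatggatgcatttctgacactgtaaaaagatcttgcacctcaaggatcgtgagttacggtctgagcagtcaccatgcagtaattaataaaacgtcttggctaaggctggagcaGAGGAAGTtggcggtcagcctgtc
Ptgs2: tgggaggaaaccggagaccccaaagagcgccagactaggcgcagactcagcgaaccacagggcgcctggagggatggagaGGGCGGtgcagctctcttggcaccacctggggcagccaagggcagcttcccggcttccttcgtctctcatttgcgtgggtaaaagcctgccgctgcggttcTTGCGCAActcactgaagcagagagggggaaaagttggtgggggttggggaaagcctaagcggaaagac
The word GAGGAAGT stood 24 to 17 bases before the start of Ptgs1, and on either strand it was in 2.44% of 32851 windows of the same length. Of the windows of the group it was also in that of Hpgds. TTGCGCAA stood 69 to 62 bases before the start of Ptgs2 and was in 0.164% of all windows, and GGGCGG stood 170 to 165 bases before it and was in 32.7%. No marked words overlapped. GGGCGG was also in the windows of Ptges and Alox5. Of the other words searched on both strands, TATAAA (12.4% of all windows) was in the windows of Tbxas1 and Pla2g4a and TGANTCA (the AP-1 site, 6.75%) in that of Tbxas1. The words CACGTG (E-box, 6.02%), ACGTCA (part of the cyclic AMP response element, 6.47%), TGACNNNGC (antioxidant response element core, 10.2%) and the NF-κB site (7.25%) were in none of these windows, which says only that those letters are not there. The share of G and C was 48.0% in the window of Ptgs1 and 61.6% in that of Ptgs2, against a median of 52.4% over all windows. A match is a description of the letters and not evidence of binding, and the words were chosen after the counts were seen.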

How the data were processed

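Poly-A RNA of 4 libraries was sequenced with a strand-specific kit. The authors filtered the reads, aligned them with HISAT2 to GRCm38.p6 and deposited 1 table of raw counts for each replicate. These unnormalized counts the authors deposited are the data used. The counting program, its strand setting and its handling of shared reads are not given in the sources used here. Ensembl identifiers were used to join the tables, and loci assembled separately in each (697 and 329) were left out. Groups and replicate numbers came from the sample labels.

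The two-sided quasi-likelihood test of edgeR 4.0.16 after TMM normalization, run in R 4.3.3, was applied to protein-coding genes whose summed count was 10 or more, with DESeq2 1.42.0 as an alternative. P-values were adjusted by the Benjamini-Hochberg method over all genes tested, with thresholds of 0.1 (adjusted) and 0.05 (unadjusted). A prior count of 2 was added for log2 values of single libraries. On simulated counts with a difference between replicates, the edgeR test with treatment alone called no changed gene at the adjusted threshold while DESeq2 with treatment alone called most and the blocked fits nearly all, so an empty result of the former does not show that levels are equal. Alternatives covered the test, scaling, filter, gene classes, dispersion method, the replicate block or a treatment term, and each library left out. Named genes were the 10 of the group, in the wider list the 2 with the highest level per length in each role and those with an unadjusted p under 0.05, the 3 genes most like Ptgs2, and the most abundant and absent markers. The members and lists were chosen with earlier results of these data known.

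Transcripts of the 10 genes were compared with all GENCODE transcripts by BLAST 2.17.0 at 90% identity over at least 200 bases. Only Lta4h matched another gene, the pseudogene Gm4854, which had 0 counts in all libraries. Overlapping genes on the opposite strand can share reads if strand was not used. The antisense gene Gm19719 at Alox5ap had 89, 107, 24 and 17 counts in Vehicle replicate 1, EGCG replicate 1, Vehicle replicate 2 and EGCG replicate 2, Gm26542 at Ltc4s 4, 14, 5 and 10, Gm43621 at Ptgs1 at most 18, Gm17147 at Hpgds at most 3, and the protein-coding gene Hipk2, which overlaps Tbxas1, between 3400 and 5043. Intervals and the floor of 3 counts cover counting error only. The symbol Dpep2 names 2 genes, of which the more abundant was used, and Pla2g2a, listed as a polymorphic pseudogene, had 0 counts. Promoter windows are from RefSeq, build GRCm38.p6.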

Additional observations from a re-analysis of the deposited data

How the results depend on the processing

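For EGCG against Vehicle, the 16 genes at an unadjusted p under 0.05 became 444 with the replicate block in edgeR, 153 with the replicate block in DESeq2, 3 with at least 10 counts in every library, 35 with genes of all biotypes and 38 with the newer dispersion method, and ranged from 8 (without EGCG replicate 1) through 57 (without Vehicle replicate 2) to 131 (without EGCG replicate 2) when each library was left out. The 0 genes at an adjusted p under 0.1 became 1 in DESeq2, 1 with the replicate block in edgeR and 7 with it in DESeq2. The cause was not tested. The labels give a biological replicate number, and libraries with the same number share a count table, but whether they share a preparation is not stated. Over 13811 genes, not independent of each other, replicate 2 minus 1 in Vehicle had a Pearson r of 0.64 with the same difference in EGCG. The block moved no gene of the group past a threshold.

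No gene of the group passed an unadjusted p of 0.05 under any alternative but the fit without EGCG replicate 2, where Ptgs2 did, so that the count ranged from 0 to 1 over the libraries left out. Of 140 log2 fold changes of the group under the alternatives, 21 had the opposite sign. With the replicate block in edgeR the sign turned for Alox5 (from -0.03 to 0.0051) and Alox5ap (from -0.01 to 0.0043). When each library was left out, which leaves a group with 1 library assumed to vary like the other group, the log2 fold changes ranged from -0.43 to 0.47 for Alox5, -0.67 to 0.71 for Alox5ap, -0.38 to 0.76 for Hpgds, -0.18 to 0.35 for Lta4h, -0.88 to 1.89 for Ltc4s, -0.34 to 0.19 for Pla2g4a, -0.53 to 0.43 for Ptges, -0.87 to 0.83 for Ptgs1, -2.50 to 1.06 for Ptgs2 and -0.0104 to 0.11 for Tbxas1. Among the wider list the ranges were -0.97 to 1.49 for Anxa1, -0.0624 to 0.45 for Fpr2, -0.14 to 0.37 for Gpx4, -1.27 to 1.61 for Pla2g7 and -0.75 to 1.13 for Ptger4. For Mgll, which did not reverse, it was 0.0304 (without EGCG replicate 1) to 0.78. In these fits the treatments are no longer balanced over the replicates, which differ.

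Between replicates, the count of 9 genes was 10 with total counts only and 8 without either library of replicate 2, and none of 130 log2 differences of the group turned. Between replicates Mgll lost its call without Vehicle replicate 2 and Ephx1 without EGCG replicate 2. Over all protein-coding genes tested the count of 7824 ranged from 5558 (without Vehicle replicate 2) to 8224 (total counts only). With genes of all biotypes, a larger set, it was 9146. The depth leaves Ltc4s, with 39 counts in Vehicle replicate 2, with the widest counting interval of the group.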
